A study of Mus musculus with 9 samples.

Results

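Eukaryotic initiation factor 2 (eIF2), its exchange factor eIF2B and the regulatory subunits of its phosphatase were followed at the transcript level in mouse retinal cells sorted as retinal ganglion cells (RGCs). The members were the rows of the deposited table with the symbols of 3 eIF2 subunits (Eif2s1, Eif2s2 and Eif2s3x), 5 eIF2B subunits (Eif2b1 to Eif2b5) and 2 phosphatase subunits (Ppp1r15a and Ppp1r15b). All 10 were among the 15228 genes listed, and all 10 were among the 13566 genes whose mean reached 0.5 RPKM (reads scaled to exon length and library size), over which differences were tested. The 3 conditions, each with 3 libraries, were compared in young adult wild-type C57BL/6J mice of both sexes. Ctrl libraries came from intact retinas with neither injury nor injection. ONC libraries came from retinas taken 3 d after optic nerve crush, an injury of the axons of RGCs, with an intraocular injection of PBS. TPEN libraries came from retinas taken 3 d after the same crush, with an injection of the zinc chelator TPEN in place of PBS. ONC/Ctrl therefore compared crush and injection together with neither, whereas in TPEN/ONC both groups were crushed and injected.

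eIF2 carries the initiator methionyl-tRNA to the small ribosomal subunit while it is bound to GTP, and leaves as eIF2-GDP once a start codon is recognised. eIF2B exchanges the GDP for GTP. Under stress, kinases phosphorylate a serine of eIF2α, which turns eIF2 into an inhibitor of eIF2B, lowers general translation and favours that of a few mRNAs such as the mRNA of ATF4. This is the core of the integrated stress response. Protein phosphatase 1 removes the phosphate when it is brought to eIF2α by GADD34 (Ppp1r15a), which is induced by stress, or by CReP (Ppp1r15b), which is made constitutively. Phosphorylation itself was not measured here, since the data are transcript levels.

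Library totals worked out from the RPKM values were 19946993 to 23109754 reads, nearly all of them in listed genes. The sort used the surface antigen Thy1, whose transcript was present at 4.74 ± 0.208 (Ctrl), 5.35 ± 0.161 (ONC) and 7.12 ± 0.443 RPKM (TPEN, each a mean ± SD of n = 3 libraries). Of 12 RGC markers, 10 were listed and none of these was at 0, and most of their sum was the neurofilament gene Nefl (258 RPKM in Ctrl), followed by Nefm (49.5 RPKM) and Nefh (31.1 RPKM), which other neurons with long axons also express. Rbpms, Pou4f1 and Slc17a6, which are more selective for RGCs in the retina, were below 1 RPKM in every library, and the summed level of 8 rod markers was 16764 to 19877 RPKM. The name RGCs thus stands for the cells as sorted. The summed level of 11 microglia and macrophage markers, none of them at 0, ran from 4.09 to 5.0 in Ctrl, from 42.5 to 43.4 in ONC and from 21.9 to 23.8 RPKM in TPEN. The RGC marker sum ran from 364 to 374 in Ctrl, from 373 to 395 in ONC and from 290.1 to 304 RPKM in TPEN. The RGC sums of Ctrl and ONC overlapped, and those of TPEN were below both, but single markers differed from this sum. In Ctrl, ONC and TPEN, Rbpms had means of 0.605, 0.393 and 0.319 RPKM, and Pou4f1 of 0.571, 0.183 and 0.241 RPKM. For both genes, Ctrl lay above the crushed groups without overlap. Slc17a6 went the other way, with means of 0.268, 0.435 and 0.438 RPKM. The sum of 5 cone markers ran from 102 to 107 in Ctrl, from 88.5 to 96.3 in ONC and from 156 to 158 RPKM in TPEN. That of 6 Müller glia markers ran from 333 to 345, from 305 to 306 and from 256 to 274 RPKM in the same order. Most of this sum was Glul (173, 116 and 103 RPKM) and Rlbp1 (125, 111 and 94.6 RPKM). Vim went the other way, with means of 19.0, 57.1 and 44.0 RPKM. The means of Slc1a3 and Kcnj10 were also higher in ONC than in Ctrl, and that of Aqp4 was lower. The rod sum ran from 19061 to 19877 in Ctrl, from 16764 to 16982 in ONC and from 17980 to 18086 RPKM in TPEN. The rod, microglia, cone and Müller glia sums thus differed between all 3 groups without overlap, and their part in the results given below was not tested. In bulk libraries such as these, fewer cells of a type and less RNA per cell cannot be told apart.

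Differences between groups were tested with limma on log2(RPKM + 0.1), with p-values adjusted over all 13566 genes by the Benjamini-Hochberg method. A gene was called higher or lower at an adjusted p under 0.05. After ONC, 4 of the 10 members were called higher than in Ctrl (Eif2s2, Eif2s3x, Eif2b5 and Ppp1r15a) and 0 were called lower, beside 11.7% of all tested genes called higher and 6.97% called lower. None of the 10 reached a fold change of 1.5 with such a p, beside 5.34% of all tested genes. Their median log2 fold change was 0.17, beside 0.017 for all tested genes, and 9 of the 10 log2 fold changes were positive. In 7 of the 10, the 3 ONC libraries lay above the 3 Ctrl libraries, beside 36.5% of all tested genes without overlap in either direction. The upper 95% confidence limits of the 10 fold changes ended at 1.42-fold or less, so the differences were small for every subunit.

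**Figure D1:**
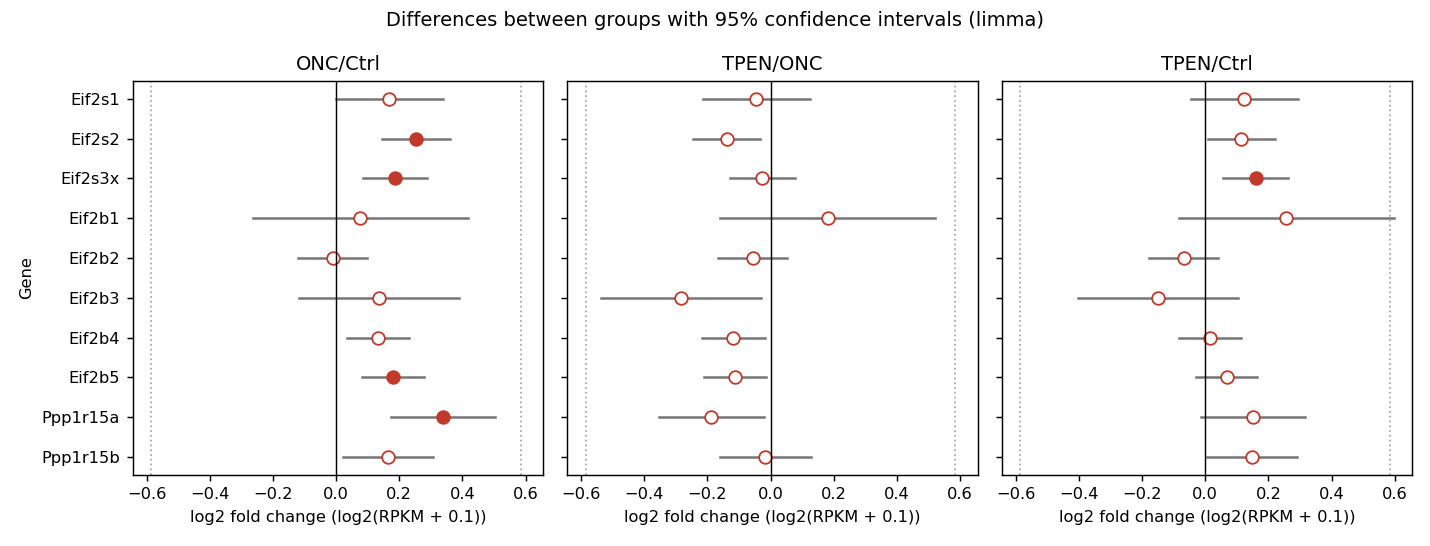
Log2 fold changes of the 10 genes in ONC/Ctrl, TPEN/ONC and TPEN/Ctrl (x axis, on the log2(RPKM + 0.1) scale), with 95% confidence intervals from limma as bars and filled points for an adjusted p under 0.05. Filled points are 4 in ONC/Ctrl, 0 in TPEN/ONC and 1 in TPEN/Ctrl, and every point lies inside the dotted lines at a fold change of 1.5.

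Eif2s1 encodes eIF2α, the subunit that receives the phosphate, on the plus strand of chromosome 12 (78861819 to 78887010, GRCm38). The codons around that serine lie in exon 2 of 8, at chr12:78866650-78866712, and are shown because all eIF2 kinases and both phosphatase complexes act on this residue. Capitals mark the serine codon, codon 52 when the initiator methionine is counted, in the GENCODE coding sequence.
Eif2s1: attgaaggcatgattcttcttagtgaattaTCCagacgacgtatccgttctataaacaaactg
Eif2s1 was at 12.6, 12.1 and 10.6 RPKM in Ctrl, 13.4, 12.7 and 13.5 RPKM in ONC, and 13.7, 11.7 and 13.1 RPKM in TPEN, in the order of the replicate numbers. All ONC libraries were above all Ctrl libraries, and the TPEN libraries overlapped both. The log2 fold change in ONC/Ctrl was 0.17 (SE 0.076, adjusted p = 0.161), which did not pass the threshold. The 95% confidence interval of the fold change ran from 0.999 to 1.26. In TPEN/ONC the log2 fold change was -0.045 (SE 0.076, adjusted p = 0.783).

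Eif2s2 encodes eIF2β, which contacts the GTPase-activating protein eIF5, on the minus strand of chromosome 2 (154871410 to 154892935). Its transcript was at 24.8, 23.9 and 22.8 RPKM in Ctrl, 28.4, 27.4 and 29.4 RPKM in ONC, and 24.9, 27.1 and 25.4 RPKM in TPEN. The 3 groups did not overlap, with Ctrl lowest, TPEN between and ONC highest. Eif2s2 rose by 19.3% in ONC/Ctrl, a log2 fold change of 0.25 (SE 0.048, adjusted p = 0.00476). The smaller differences on either side of TPEN did not pass the threshold, with log2 fold changes of -0.14 in TPEN/ONC (SE 0.048, adjusted p = 0.119) and 0.11 in TPEN/Ctrl (adjusted p = 0.155).

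Eif2s3x encodes eIF2γ, the subunit that binds GTP and the initiator tRNA, on the minus strand of the X chromosome (94188707 to 94212862). Its levels were 28.6, 27.6 and 26.7 RPKM in Ctrl, 30.7, 32.7 and 30.9 RPKM in ONC, and 30.2, 32.6 and 29.9 RPKM in TPEN. Both crushed groups lay above Ctrl without overlap and overlapped each other. Eif2s3x rose in ONC/Ctrl by a log2 fold change of 0.19 (SE 0.045, adjusted p = 0.0183) and in TPEN/Ctrl by 0.16 (SE 0.045, adjusted p = 0.0467). The first call was lost without Ctrl replicate 2 (adjusted p = 0.0508), Ctrl replicate 3 (adjusted p = 0.0569) or ONC replicate 2 (adjusted p = 0.0701), and the second when any 1 of the 9 libraries was left out, with adjusted p from 0.0505 to 0.137. In TPEN/ONC the log2 fold change was -0.026 (adjusted p = 0.792).

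A Y-linked copy, Eif2s3y, encodes a second eIF2γ, and the mice were of both sexes. Eif2s3y was at 16.8, 17.4 and 15.7 RPKM in Ctrl, 14.1, 13.6 and 13.9 RPKM in ONC, and 14.1, 12.9 and 13.6 RPKM in TPEN. Its direction was opposite to that of Eif2s3x: it fell in ONC/Ctrl by 0.26 on the log2 scale (SE 0.051, adjusted p = 0.00624) and in TPEN/Ctrl by 0.29 (SE 0.051, adjusted p = 0.00463). The ratio of Eif2s3x to Eif2s3y was 1.59 to 1.71 in Ctrl, 2.18 to 2.41 in ONC and 2.14 to 2.53 in TPEN. The sum of both was 42.4 to 45.4 in Ctrl, 44.8 to 46.3 in ONC and 43.5 to 45.5 RPKM in TPEN. The summed eIF2γ transcript thus overlapped between the groups, while the ratio of the X-linked to the Y-linked transcript separated Ctrl from both crushed groups, which overlapped each other. The coding sequences were identical at 86.3% of 1419 bases, and at 462 of 472 residues, and 0 of 3598 windows of 50 bases of the Eif2s3x transcript were found exactly in the Eif2s3y transcript.

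The other X and Y pairs were looked at after these values were seen. Ddx3y, a Y-linked RNA helicase, fell in ONC/Ctrl by 0.23 on the log2 scale (SE 0.052, adjusted p = 0.0125), a call lost without ONC replicate 1 (adjusted p = 0.0505). Its X-linked partner Ddx3x differed by -0.0060 (SE 0.027, adjusted p = 0.908). Neither member of the histone demethylase pairs Kdm5c and Kdm5d or Kdm6a and Uty was called in ONC/Ctrl. The log2 fold changes were -0.018 for Kdm5c, -0.14 for Kdm5d, -0.23 for Kdm6a and -0.093 for Uty. Of 4 Y-linked genes, 2 were thus called lower in ONC, beside 6.97% of all tested genes. Eif2s3y, whose values prompted the look, is among these 2. The sex of the mice behind each library is not given in the sources used here, so its part in the Eif2s3x difference was not tested.

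**Figure D2:**
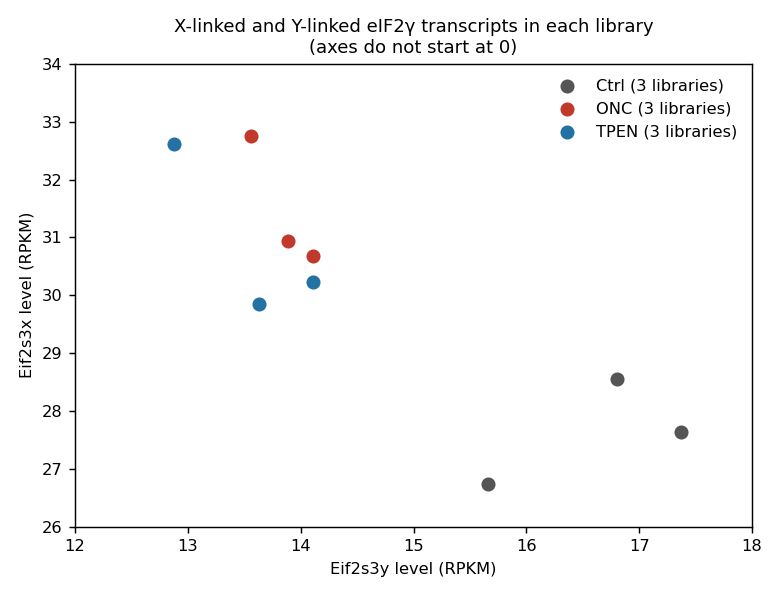
Level of Eif2s3x (y axis, RPKM) against Eif2s3y (x axis, RPKM), 1 point for each of the 9 libraries, with axes that do not start at 0. The Ctrl libraries lie at 26.7 to 28.6 RPKM of Eif2s3x and 15.7 to 17.4 RPKM of Eif2s3y, and the ONC and TPEN libraries lie above and to the left of them.

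Summed over Eif2s1, Eif2s2 and Eif2s3x, eIF2 was at 63.2 ± 2.95 (Ctrl), 73.1 ± 0.712 (ONC) and 69.5 ± 1.66 RPKM (TPEN, SD, n = 3 each). With Eif2s3y added, the sums were 79.8 ± 3.64, 86.9 ± 0.703 and 83.0 ± 1.16 RPKM, of which both eIF2γ genes together made up 55.4% ± 0.588, 52.1% ± 1.27 and 53.5% ± 0.465. Without Eif2s3y, Eif2s1 made up 18.6% in Ctrl, 18.1% in ONC and 18.5% in TPEN, and Eif2s3x made up 43.7%, 43.0% and 44.4%.

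eIF2B is a decamer with 2 copies of each of 5 subunits, of which α, β and δ form the regulatory core that senses phosphorylated eIF2α, and γ and ε form the catalytic arms. Of the 3 genes of the regulatory core, 0 were called in any comparison. Eif2b1, for the α subunit, lies on the minus strand of chromosome 5 (124570213 to 124579131) and had only 118 to 184 reads per library. Its levels were 2.04, 2.97 and 3.03 RPKM in Ctrl, 2.51, 2.99 and 2.88 RPKM in ONC, and 3.57, 3.07 and 2.91 RPKM in TPEN. All groups overlapped, and Ctrl replicate 1 was the lowest library. The log2 fold change in ONC/Ctrl was 0.076 (SE 0.15, adjusted p = 0.782), with limits of 0.833-fold and 1.33-fold, so Eif2b1 was the member measured with the least precision.

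Eif2b2, for the β subunit, lies on the plus strand of chromosome 12 (85219481 to 85226628). It was at 22.5, 24.3 and 22.0 RPKM in Ctrl, 21.7, 23.2 and 23.4 RPKM in ONC, and 22.1, 22.2 and 21.2 RPKM in TPEN. The groups overlapped in every comparison. Its log2 fold change in ONC/Ctrl was -0.011 (SE 0.048, adjusted p = 0.902), the only negative value of the 10, with a 95% confidence interval of the fold from 0.921 to 1.07. Its share of the summed eIF2B transcripts was 33.4% ± 1.12 in Ctrl, 31.0% ± 0.736 in ONC and 31.7% ± 0.624 in TPEN.

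Eif2b4, for the δ subunit, lies on the minus strand of chromosome 5 (31187558 to 31193430) and shares 204 exonic bases, 7.85% of its exon length, with Snx17 on the other strand. Eif2b4 was at 22.0, 21.3 and 20.1 RPKM in Ctrl, 23.5, 23.2 and 22.8 RPKM in ONC, and 20.8, 22.3 and 21.0 RPKM in TPEN. The ONC libraries were above all others, and Ctrl and TPEN overlapped. The differences did not pass the threshold, with log2 fold changes of 0.13 in ONC/Ctrl (SE 0.044, adjusted p = 0.0657) and -0.12 in TPEN/ONC (SE 0.044, adjusted p = 0.148).

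Eif2b5 encodes ε, the subunit with the exchange activity, on the plus strand of chromosome 16 (20498817 to 20509955). It was at 19.0, 19.5 and 20.8 RPKM in Ctrl, 22.1, 22.7 and 22.4 RPKM in ONC, and 19.9, 21.1 and 21.1 RPKM in TPEN. Again the ONC libraries were the highest and the other groups overlapped. Eif2b5 rose in ONC/Ctrl by a log2 fold change of 0.18 (SE 0.044, adjusted p = 0.0169). This call was lost without Ctrl replicate 1 (adjusted p = 0.0660), Ctrl replicate 2 (adjusted p = 0.0572) or ONC replicate 2 (adjusted p = 0.0599). In TPEN/ONC the log2 fold change was -0.11 (SE 0.044, adjusted p = 0.159).

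Eif2b3, for the γ subunit, lies on the plus strand of chromosome 4 (117019402 to 117087306) and was the least abundant member by RPKM, with a mean of 2.04 over the 9 libraries. Its levels were 1.82, 2.24 and 2.06 RPKM in Ctrl, 2.06, 2.28 and 2.40 RPKM in ONC, and 2.02, 1.66 and 1.81 RPKM in TPEN. The TPEN libraries were below all ONC libraries, and Ctrl overlapped both. The log2 fold change in TPEN/ONC was -0.28 (SE 0.11, adjusted p = 0.174), with limits of 0.689-fold and 0.979-fold, and did not pass the threshold.

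**Figure D3:**
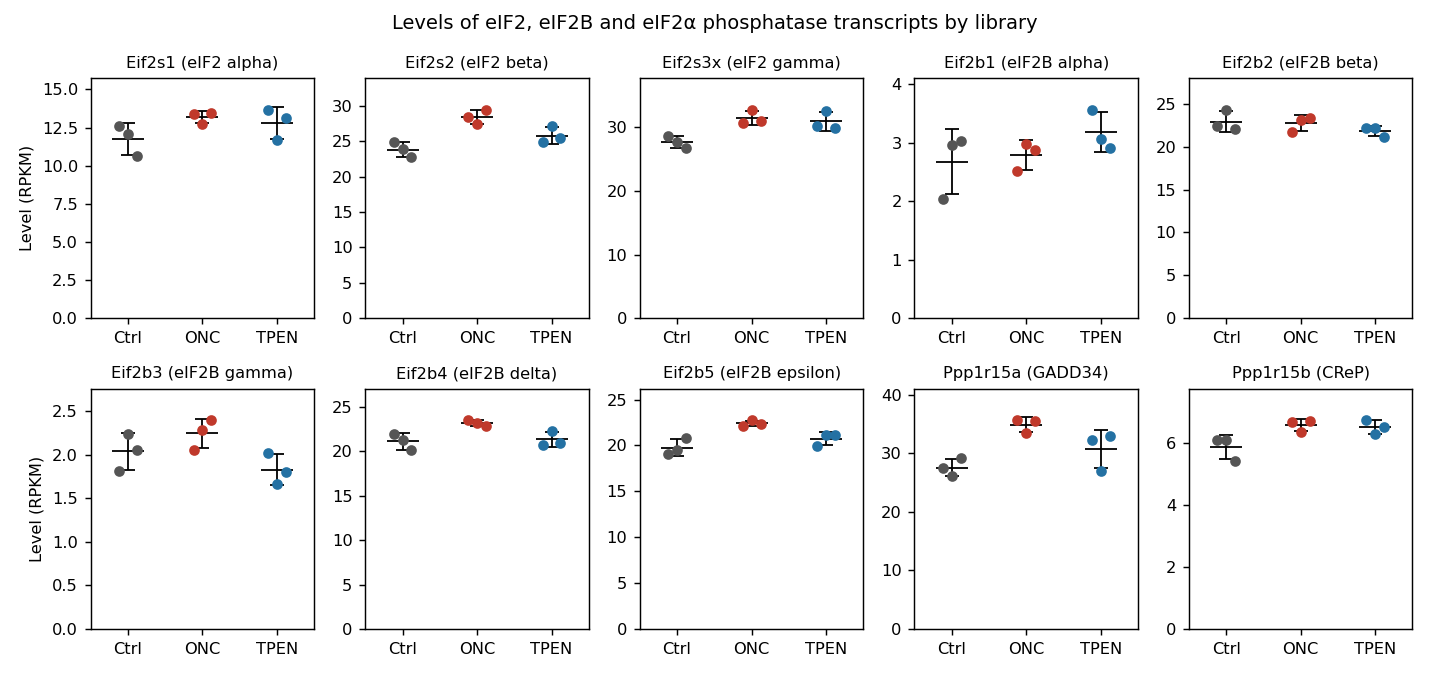
Level of each of the 10 transcripts (y axis, RPKM, from 0) in the 9 libraries, as points, with the group mean and SD (n = 3) as bars. Eif2s1, Eif2s2, Eif2s3x, Eif2b4, Eif2b5, Ppp1r15a and Ppp1r15b show ONC above Ctrl without overlap. Of these, Eif2s2, Eif2s3x, Eif2b5 and Ppp1r15a were called. Eif2b1 and Eif2b3 lie below 4 RPKM in every library.

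Although eIF2B holds its 5 subunits in equal number, their transcripts differed in level. Eif2b2, Eif2b4 and Eif2b5 had means of 22.5, 21.9 and 21.0 RPKM, against 2.89 RPKM for Eif2b1 and 2.04 RPKM for Eif2b3. RPKM divides by the whole exon length of a gene, which was 6520 bases for Eif2b3 but 1885 bases for Eif2b2, whereas the coding lengths were 1359 and 1056 bases. With the coding length in place of the exon length, the mean level was 9.79 for Eif2b3 and 8.11 for Eif2b1, against 31.2 for Eif2b5, 33.4 for Eif2b4 and 40.2 for Eif2b2. Eif2b1 and Eif2b3 therefore stayed below the other subunit genes on both length scales.

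Ppp1r15a, for GADD34, lies on the minus strand of chromosome 7 (45522916 to 45526268), and Ppp1r15b, for CReP, on the plus strand of chromosome 1 (133131143 to 133139783). GADD34 holds protein phosphatase 1 by a KVxF motif (x stands for any residue), and the codons around it are shown because the phosphatase binds there. The stretch spans exons 1 and 2 (chr7:45523739-45523771 and chr7:45523284-45523322, minus strand) and the motif is codons 548 to 551. Capitals mark the motif codons in the GENCODE coding sequence on GRCm38.
Ppp1r15a: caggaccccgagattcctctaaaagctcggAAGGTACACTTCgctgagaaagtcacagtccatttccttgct

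Ppp1r15a was the most abundant member by RPKM, at 27.4, 26.1 and 29.1 RPKM in Ctrl, 35.6, 33.4 and 35.5 RPKM in ONC, and 32.2, 27.0 and 33.0 RPKM in TPEN. The ONC libraries were above all others, and TPEN replicate 2 lay within the Ctrl range. Ppp1r15a rose by 26.5% in ONC/Ctrl, a log2 fold change of 0.34 (SE 0.074, adjusted p = 0.0104), the largest of the 10. In TPEN/ONC the log2 fold change was -0.19 (SE 0.074, adjusted p = 0.171) and in TPEN/Ctrl 0.15 (adjusted p = 0.226), neither past the threshold. Without TPEN replicate 2, Ppp1r15a was called higher in TPEN/Ctrl, with a log2 fold change of 0.24 (adjusted p = 0.0226). Its exons share 12 bases with Tulp2 on the other strand.

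Ppp1r15b was at 6.12, 6.11 and 5.43 RPKM in Ctrl, 6.70, 6.37 and 6.72 RPKM in ONC, and 6.74, 6.29 and 6.53 RPKM in TPEN. Both crushed groups were above Ctrl without overlap, and they overlapped each other. The log2 fold changes of 0.16 in ONC/Ctrl (SE 0.064, adjusted p = 0.109) and 0.15 in TPEN/Ctrl (adjusted p = 0.169) did not pass the threshold. Ppp1r15b shares 640 exonic bases, 11.4% of its exon length, with Gm26616 on the other strand, and whether strand was used in counting is not given in the sources used here.

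The balance of the stress-induced and the constitutive subunit was measured as the log2 ratio of Ppp1r15a to Ppp1r15b within each library, taken as the difference of their log2(RPKM + 0.1) values. The log2 ratio was 2.15, 2.08 and 2.40 in Ctrl, 2.39, 2.37 and 2.39 in ONC, and 2.24, 2.08 and 2.32 in TPEN. All ONC values were above all TPEN values, and Ctrl replicate 3 exceeded every other library. An exact permutation test over the 3 groups gave p = 0.225 (smallest p possible 0.00357). Without Ctrl replicate 3 the same exact permutation test gave p = 0.0464, and leaving out any other library gave p from 0.204 to 0.364. For pairs of groups, two-sided exact permutation tests gave p = 0.1 in TPEN/ONC, which is the smallest p that 3 against 3 libraries can give, p = 0.4 in ONC/Ctrl and p = 0.9 in TPEN/Ctrl.

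Promoter windows of 300 bases, from 250 before to 50 after the transcription start (RefSeq, GRCm38.p6), were found for 8 of the 10 genes, all but Eif2b3 and Ppp1r15b. Ppp1r15a, the member with the largest difference after crush, held the cAMP response element TGACGTCA, bound by the CREB and ATF family, with its first base 12 bases before the start. Among 32851 promoters of the same length, 588 (1.79%) held this palindrome. It is in capitals in the 100 bases before the start (chr7:45526269-45526368, minus strand).
Ppp1r15a promoter: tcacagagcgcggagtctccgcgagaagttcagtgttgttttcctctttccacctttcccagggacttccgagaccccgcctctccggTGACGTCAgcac
A second motif, the C/EBP-ATF element TGATGNAA searched on both strands, was found in 3.97% of all promoters and in 1 of the 8, that of Eif2s3x, 96 bases before the start. The ETS core CCGGAAG, searched on both strands, was found in 8.86% of all promoters and in 2 of the 8, those of Eif2b2 and Eif2b4. The palindrome and the ETS core each contain a CpG (C followed by G). The 8 windows held 9 to 31 CpG, with 26 in that of Ppp1r15a, against a median of 7 over all promoters. The shares of all promoters were not matched for CpG number. A match describes these letters and does not show binding.

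The question behind TPEN/ONC was whether zinc chelation changes the response of these cells to crush. With limma, 0 of the 10 members were called in TPEN/ONC, in which 3.24% of all tested genes were called higher and 4.14% lower, and 2.03% were called with a fold change of at least 1.5. The log2 fold changes of 9 of the 10 were negative, with a median of -0.085 beside -0.011 for all tested genes. In Eif2s2, Eif2b3, Eif2b4, Eif2b5 and Ppp1r15a the TPEN libraries were below the ONC libraries without overlap, 5 of 10 genes beside 28% of all tested genes. These 5 genes also had an unadjusted p under 0.05, beside 22% of all tested genes in either direction. When the same libraries were tested with voom on the whole reads behind the RPKM values, 2 of the 10 were called lower, Eif2s2 (adjusted p = 0.0195) and Ppp1r15a (adjusted p = 0.0231), beside 6.99% of all tested genes called lower by voom. Over the 7 alternative settings of this kind, their adjusted p ranged from 0.0195 to 0.198 and from 0.0231 to 0.246. The exception to the negative sign was Eif2b1, with a log2 fold change of 0.18 (SE 0.15, adjusted p = 0.543). ONC/Ctrl and TPEN/ONC share the ONC libraries, so high values in those libraries raise the first and lower the second.

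In TPEN/Ctrl, 1 of the 10 members was called higher (Eif2s3x) and 0 were called lower by limma, beside 8.36% and 5.01% of all tested genes. None passed a fold change of 1.5, beside 3.91% of all tested genes. At an unadjusted p under 0.05, 3 were higher and 0 lower, a share near the 27.2% of all tested genes in either direction. The TPEN libraries of Eif2s2, Eif2s3x and Ppp1r15b lay above the Ctrl libraries, 3 of 10 beside 31.3% of all tested genes without overlap. The median log2 fold change was 0.12, beside 0.012 for all tested genes. The largest was that of Eif2b1 at 0.26 (SE 0.15, adjusted p = 0.321), with limits of 0.944-fold and 1.51-fold. Summed over the subunits, eIF2B was at 68.5 ± 1.54 (Ctrl), 73.4 ± 1.31 (ONC) and 68.9 ± 1.31 RPKM (TPEN). The 2 phosphatase subunits together were at 33.4 ± 1.16, 41.5 ± 1.46 and 37.2 ± 3.45 RPKM in the same order.

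The other genes of the pathway were taken from 7 lists of 63 genes, of which 61 were tested. In ONC/Ctrl 21 were called higher and 3 lower, beside 11.7% and 6.97% of all tested genes. In TPEN/ONC 0 were called higher and 9 lower, beside 3.24% and 4.14%. In TPEN/Ctrl 11 were called higher and 0 lower, beside 8.36% and 5.01%. The median log2 fold changes of the 61 genes were 0.11, -0.051 and 0.050 in the same order. The same percentages of all tested genes stand beside the counts of each list given below.

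Of the 4 kinases that phosphorylate eIF2α, 1 rose in ONC/Ctrl. Eif2ak2, for the kinase PKR activated by double-stranded RNA, was at 1.34 ± 0.184 (Ctrl), 5.58 ± 0.640 (ONC) and 3.14 ± 0.246 RPKM (TPEN). It rose in ONC/Ctrl by a log2 fold change of 1.98 (SE 0.12, adjusted p = 3.29e-06), fell in TPEN/ONC by 0.81 (SE 0.12, adjusted p = 0.00413) and was higher in TPEN/Ctrl by 1.18 (adjusted p = 0.000168). The kinase genes Eif2ak1 (HRI), Eif2ak3 (PERK) and Eif2ak4 (GCN2) had log2 fold changes of 0.11, 0.033 and 0.062 in ONC/Ctrl, and none was called in any comparison. The kinase list thus held 1 large difference, in a gene that interferon induces, against fold changes of under 1.5 in every eIF2, eIF2B and phosphatase gene. Eif2ak2 shares 174 exonic bases with Gm26637 on the other strand.

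Of 3 catalytic subunits of protein phosphatase 1, Ppp1cc fell in ONC/Ctrl by 0.14 (SE 0.032, adjusted p = 0.0135), a call lost without Ctrl replicate 2 (adjusted p = 0.0509) or ONC replicate 2 (adjusted p = 0.0520). Ppp1ca had the highest value of that list, 0.18 (adjusted p = 0.134). Of 14 factors of eIF2 assembly, ternary complex and start codon selection, 4 rose and 2 fell in ONC/Ctrl. The highest was Eif1a, for a factor that opens the ribosome for scanning, with a log2 fold change of 0.48 (adjusted p = 0.000629) in ONC/Ctrl and 0.46 (adjusted p = 0.00125) in TPEN/Ctrl. The lowest was Mcts1, for a factor of re-initiation, at -0.40 (adjusted p = 0.0239), a call lost when Ctrl replicate 1, 2 or 3, ONC replicate 1 or ONC replicate 3 was left out (adjusted p up to 0.0821). Bzw2, for a competitor of eIF5 on eIF2β, was the other gene that fell, by 0.28 (adjusted p = 0.00624), and is named after its value was seen. In TPEN/ONC 1 of the 14 fell, Eif5b, for the GTPase that joins the ribosomal subunits, by 0.15 (adjusted p = 0.0115), a call lost without ONC replicate 1 (adjusted p = 0.0509), with 16.8% of its exon length shared with Rev1 on the other strand.

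Of 4 tested genes for regulators of GCN2 and the eIF2 adaptor ABCF1, Abcf1 was called in each comparison. It rose in ONC/Ctrl by 0.23 (adjusted p = 6.29e-05) and in TPEN/Ctrl by 0.13 (adjusted p = 0.00337), and fell in TPEN/ONC by 0.099 (adjusted p = 0.0240). The last call was lost when ONC replicate 1, 2 or 3, TPEN replicate 1 or TPEN replicate 3 was left out (adjusted p up to 0.0957). Under quantile normalization neither the TPEN/Ctrl nor the TPEN/ONC call was kept, and the adjusted p over the 7 alternative settings reached 0.0633 and 0.0694. Impact, for an inhibitor of GCN2 activation, had the lowest value in ONC/Ctrl, -0.11 (adjusted p = 0.164), and the highest in TPEN/ONC, 0.19 (adjusted p = 0.0615). Of 14 eIF3 subunit genes, 6 rose and 0 fell in ONC/Ctrl, with a median of 0.18 and extremes of -0.088 (Eif3e, adjusted p = 0.371) and 0.25 (Eif3j2, adjusted p = 0.338), neither of them called. In TPEN/ONC 1 of these 14 was called lower.

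Of 14 eIF4 genes, 4 rose and 0 fell in ONC/Ctrl, and 3 fell in TPEN/ONC. The largest difference was that of Eif4ebp1, whose protein 4E-BP1 holds eIF4E away from the cap-binding complex, at 0.392 ± 0.211 (Ctrl), 1.11 ± 0.209 (ONC) and 0.382 ± 0.160 RPKM (TPEN). The log2 fold change was 1.37 (SE 0.32, adjusted p = 0.0156) in ONC/Ctrl and -1.37 (SE 0.32, adjusted p = 0.0329) in TPEN/ONC. Eif4ebp1 passed the 0.5 RPKM filter only through ONC, the group where it was high, and dropped out with the filter at 1 RPKM. Its means in Ctrl and TPEN were below 0.5 RPKM. At such levels the value depends on the pseudocount, and with 1 RPKM in place of 0.1 it was 0.61 and -0.61, still called. The ONC/Ctrl call was lost when Ctrl replicate 1 or 2 or ONC replicate 1 was left out (adjusted p up to 0.0612), and the TPEN/ONC call when ONC replicate 1, 2 or 3 or TPEN replicate 1 or 2 was (adjusted p up to 0.114).

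Of 8 tested genes for ATF4, related transcription factors and their targets, 5 rose and 0 fell in ONC/Ctrl, with a median log2 fold change of 0.45. Atf3, for a stress-induced partner of ATF4, was at 6.17 ± 0.415 (Ctrl), 14.3 ± 0.682 (ONC) and 10.5 ± 0.252 RPKM (TPEN). It rose in ONC/Ctrl by 1.20 (SE 0.060, adjusted p = 8.83e-07), was higher in TPEN/Ctrl by 0.76 (adjusted p = 3.18e-05) and fell in TPEN/ONC by 0.44 (adjusted p = 0.00252). Asns, for asparagine synthetase, rose in ONC/Ctrl by 0.97 (SE 0.16, adjusted p = 0.00201) and fell in TPEN/ONC by 0.71 (adjusted p = 0.0250), a call lost when ONC replicate 1, 2 or 3 or TPEN replicate 1 was left out (adjusted p up to 0.0888). Atf4, named after its values were seen, was at 116 ± 2.21 (Ctrl), 136 ± 1.20 (ONC) and 135 ± 1.58 RPKM (TPEN), a log2 fold change of 0.23 in ONC/Ctrl (SE 0.024, adjusted p = 0.000149). Its protein is set largely by translation, which was not measured. Trib3, for a repressor of ATF4, had the lowest value in ONC/Ctrl, -0.064 (SE 0.20, adjusted p = 0.864).

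**Figure D4:**
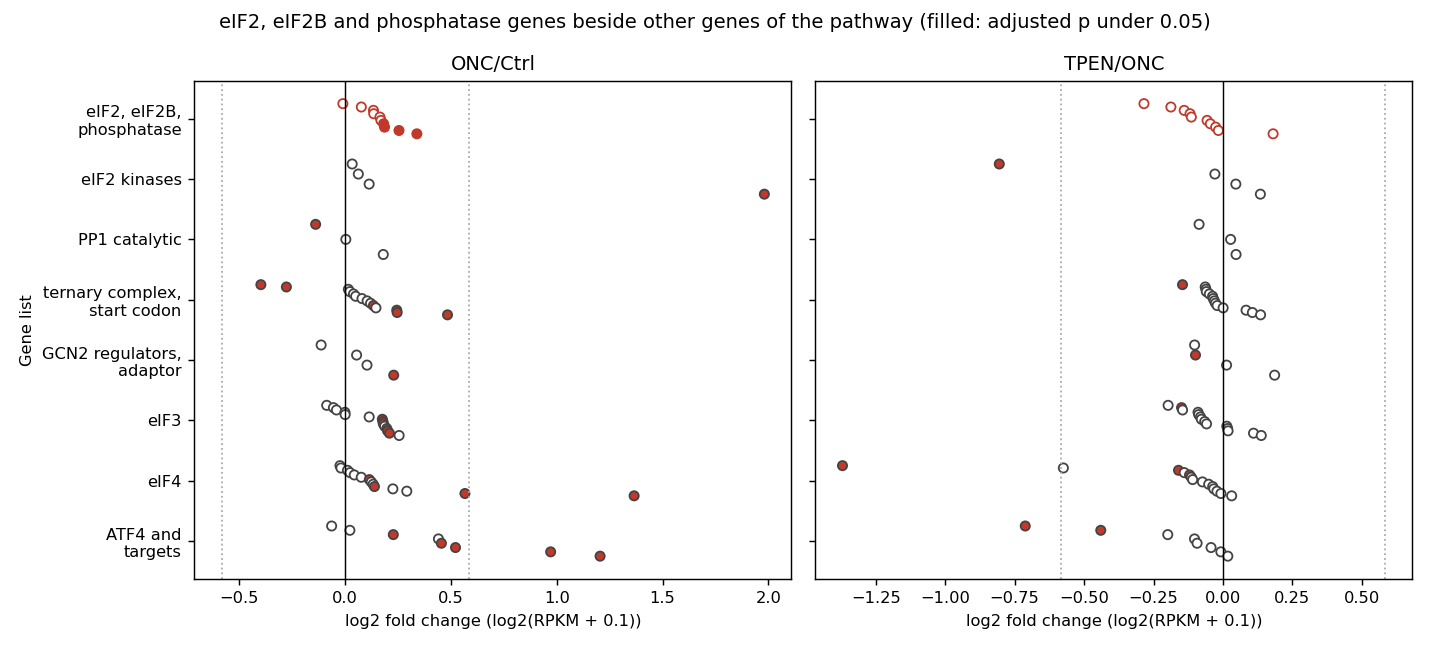
Log2 fold changes (x axis, log2(RPKM + 0.1) scale) of the 10 genes in the top row and of the genes of 7 pathway lists in the rows below, for ONC/Ctrl and TPEN/ONC, with filled points for an adjusted p under 0.05 and dotted lines at a fold change of 1.5. The 10 genes lie between -0.28 and 0.34, whereas Eif2ak2 reaches 1.98 in ONC/Ctrl. Eif4ebp1 reaches 1.37 there, with a Ctrl mean below the 0.5 RPKM limit.

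The transcripts with the most similar profiles over the 9 libraries were ranked by the root mean square difference of the centred log2(RPKM + 0.1) values among all tested genes, as a description. Nearest to Eif2s1 was Ppp1r15b, at 0.040 log2 units, followed by Ext2 (0.043) and Inafm2 (0.044). Nearest to Ppp1r15b were Smn1 (0.028), Ext2 (0.032) and Spty2d1 (0.033). Eif2s1 was not among the 3 nearest to Ppp1r15b, and neither gene was called in ONC/Ctrl. The counting error per library was 3.08% to 3.71% for Eif2s1 and 3.40% to 4.05% for Ppp1r15b. The small distance between them is therefore not read as a link between the 2 genes. Nearest to Ppp1r15a were Adar (0.051), Tuba1a (0.058) and Mtif3 (0.061). Adar, for an enzyme that edits double-stranded RNA, was at 7.41, 9.49 and 8.48 RPKM in Ctrl, ONC and TPEN. The order of its group means was that of Ppp1r15a. Since Adar was picked by its likeness over these same libraries, this order is not a separate result. All profiles share the same libraries, and Adar and Mtif3 share 16.8% and 29.4% of their exon lengths with Chrnb2 and Gtf3a on the other strand.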

How the data were processed

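The 9 RNA libraries of sorted cells were made with a stranded mRNA kit carrying molecular identifiers. The authors mapped reads with STAR to GRCm38/mm10 after trimming (Trimmomatic 0.36, per the submitters' processing notes) and deposited RPKM values per gene. The deposited p-values, FDRs and fold changes of their own comparisons were not used. The counter, annotation, use of strand, collapsing of identifiers and whether libraries came from separate mice are not given in the sources used here, so p-values measure the spread between libraries, which may be technical. RPKM times exon length gave whole reads within 0.01, hence the library totals and read numbers. Depth covers counting error only.

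Genes whose mean reached 0.5 RPKM were tested with limma 3.58.1 (trend, R 4.3.3) on log2(RPKM + 0.1), with 1 coefficient per group over all 9 libraries, tested on simulated data first. Replicates of each group differed beyond sampling noise (mean chi-square per gene 2.30 to 5.32), so all were kept. The members and lists were chosen with earlier results of these data known. Named pathway genes were drawn from those called with a 1.5-fold change, the extremes of each list, and the 3 nearest profiles of Eif2s1, Ppp1r15a and Ppp1r15b. Not every extreme is named. All eIF2 kinases are given, and Bzw2 and Atf4 were named after their values were seen. Alternatives were quantile normalization, no filter, a filter at 1 RPKM, 1 RPKM as pseudocount, 6 libraries per comparison, a replicate block, voom on whole reads, a test against a 1.5-fold change, and leaving out each library. Python 3.11.15 and SciPy 1.17.1 were used. Gcn1 (other than as Gcn1l1), Chac1 and Xist were looked up but were not among the genes listed, so they were not analysed here.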

Additional observations from a re-analysis of the deposited data

How the results depend on the processing

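In ONC/Ctrl the 4 higher calls among the 10 genes were kept in number under every alternative except the test against a fold of 1.5, which left 0 (0 at an unadjusted p under 0.05), and leaving out a library, which gave 2 to 4, with 2 without Ctrl replicate 2 or ONC replicate 2. Eif2s2 and Ppp1r15a were called higher in all 9 such fits. The pathway genes called higher became 2 and those called lower 0 in the test against a fold of 1.5, and 14 to 21 and 1 to 3 with a library left out. In TPEN/ONC voom called 2 of the 10 genes lower, and leaving out a library called 0. Pathway genes called higher there were 1 under quantile normalization and 1 under voom, and those called lower were 0 in the test against a fold of 1.5. With a library left out they were 0 to 1 higher and 3 to 10 lower. In TPEN/Ctrl the single call was 0 under quantile normalization, 0 with 6 libraries and 0 in the test against a fold of 1.5, and with a library left out 0 to 1 of the 10 genes were called higher, where the 1 was Ppp1r15a, without TPEN replicate 2, and Eif2s3x was called in 0 of 9 fits. Pathway genes called higher there were 6 under quantile normalization, 7 with 6 libraries and 1 in the test against a fold of 1.5, and 6 to 9 with a library left out. Those called lower were 2 under quantile normalization and 0 to 1 with a library left out. The cause of these moves was not tested, except that fits without a library hold fewer samples and the fold test asks for more.

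No shared deviation by replicate number was seen. The deviations of same-numbered libraries correlated at -0.062 to 0.027 (9 pairs), against -0.037 to 0.051 for different numbers (18 pairs). Whether same-numbered libraries were collected or handled together is not given in the sources used here. The replicate block left the counts over the 10 genes at 4, 0 and 1 and gave 7 pathway genes higher in TPEN/Ctrl in place of 11.

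Values near 0 changed sign. With a library left out, the log2 fold change of Eif2b1 in ONC/Ctrl ranged from -0.10 to 0.17 and that of Eif2b2 from -0.040 to 0.031, and in TPEN/ONC that of Eif2s1 from -0.093 to 0.020, that of Eif2s3x from -0.066 to 0.0031 and that of Ppp1r15b from -0.042 to 0.0089. Eif2b4 in TPEN/Ctrl was -0.00086 under quantile normalization and -0.021 to 0.044 with a library left out. The p of the log2 ratio of Ppp1r15a to Ppp1r15b ranged from 0.0464 to 0.364 with a library left out. Quantile normalization moved the median of all genes by -0.043, 0.013 and -0.027 in ONC/Ctrl, TPEN/ONC and TPEN/Ctrl, and the share of higher among all called genes from 62.7% to 46.9%, from 43.9% to 53.9% and from 62.5% to 52%. The same alternatives were run, after their values were seen, for the called genes named outside the 10, and none changed sign. Depth limits Eif2b1 and Eif2b3 most, with a counting error of 5.28% to 9.21% per library.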
